A study of Mus musculus with 6 samples.

Results

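The Zfp genes are mouse genes whose symbol is Zfp followed by a number, for zinc finger protein. They were taken as every probe set with exactly 1 platform symbol of that form, and each gene was read from whichever of its probe sets averaged highest across the 6 samples. That gave 173 genes, held by 254 probe sets, of 12393 genes tested. Expression was measured on Affymetrix Mouse430a arrays in CD4+CD25+ T cells, a surface gate that enriches for regulatory T cells. All 6 samples came from mice of C57BL6 background. The 3 control samples were wild type, with no Cre named. The other 3, called Hdac3 deleted here, came from mice with both Hdac3 alleles floxed and a Cre recombinase named for Foxp3 (HDAC3-fl/fl_FOXP3cre), so that the deletion is directed to cells that express Foxp3. Their titles and genotype name Hdac3, while their source field names Hdac11. The labels give no age. They do not say whether each array holds its own mouse, so the p-values cover the spread among these 6 samples alone, and that spread may be technical.

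Zinc finger proteins of the classical type fold short segments around a zinc ion and use arrays of them to read DNA. The largest group in the mouse carries a KRAB domain, which recruits the corepressor Trim28, the histone methyltransferase Setdb1 and heterochromatin proteins. These genes are known for silencing retroelements and imprinted loci, and they lie in tandem clusters of related copies. The name Zfp is not a single family. It also covers a small group with fingers of the CCCH type, Zfp36, Zfp36l1 and Zfp36l2, which bind AU-rich elements in messenger RNA and recruit the CCR4-NOT deadenylase, and assorted splicing, ribosome and spindle factors.

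Values are log2 RMA signals, and differences are given as the Hdac3 deleted mean less the wild type mean. A gene was called when its limma p, adjusted by the Benjamini-Hochberg method over all 12393 genes, was under 0.05. Signal below the top of the range of 27 Bacillus control probe sets, 5.16, was read as background. By that mark 113 of the 173 Zfp genes were above background in both groups, 9 in wild type only, 3 in Hdac3 deleted samples only and 48 in neither. Where 1 group lay in background, the fold is given as "at least", from 5.16. Hdac3 itself measured 9.07, 9.04 and 9.01 in wild type against 8.46, 8.51 and 8.50 in Hdac3 deleted samples, a difference of -0.55 (limma adjusted p = 7.45e-05), or 0.91 relative to the CD3 genes. Foxp3 lay in background in both groups, at 3.77 ± 0.291 and 3.68 ± 0.153 (SD, n = 3), so this defining marker could not be read. Il2ra, which encodes CD25, was higher by 0.71 and Cd4 lower by 1.02.

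Marker transcripts of several cell types differed between the groups. All 4 CD3 genes fell, and the log2 of their summed signal was 14.37 to 14.47 in wild type against 13.03 to 13.05 in Hdac3 deleted samples. Of 19 monocyte and macrophage markers 18 were at least 2-fold higher, with summed signal of 9.31 to 9.39 and 16.65 to 16.69. In wild type 12 of those 19 lay in background, and in Hdac3 deleted samples 1. All 13 neutrophil markers were at least 2-fold higher, from 8.55 to 8.98 up to 15.35 to 15.38. Over all genes 22.4% were called higher and 38.8% lower, and 9.04% rose past 2-fold. Of 9 B cell markers 4 were higher and 2 lower, and of 15 cell cycle genes 14 were higher. Of 6 natural killer cell markers 3 were higher and 1 lower, and of 6 erythroid markers 2 were higher and 1 lower. Their part in the Zfp results was not tested, and in pooled RNA fewer T cells and less RNA per T cell cannot be told apart.

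Most Zfp genes were lower in the Hdac3 deleted samples, while relative to the 4 CD3 genes of the same sample the direction turned for nearly all of them. On the deposited scale 107 of the 173 fell and 14 rose, and 52 did not pass. Over all genes 38.8% were called lower and 22.4% higher, against 61.8% and 8.09% of the Zfp genes. Among the 113 Zfp genes above background in both groups, 79 fell and 10 rose, or 69.9% and 8.85%, beside 46% and 27.4% of all such genes. Among them 83 were lower and 12 higher with no overlap between the groups, or 73.5% and 10.6%, beside 50% and 30.1% of all such genes. The values of the groups did not overlap in 111 Zfp genes that were lower and 16 that were higher, or 64.2% and 9.25%, beside 43.1% and 24.3% of all genes. On the CD3 scale limma called 166 Zfp genes higher and 0 lower, also 0 at an unadjusted p under 0.05. Nearly all genes went this way there. The median over all genes was 1.30, 99% of all calls were higher and 0.944% of all genes were called lower.

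The median difference over the Zfp genes was -0.35, with quartiles of -0.64 and -0.13, and the median over all genes was -0.17. The median level of the 173 genes was 6.77, 6.67 and 6.79 in wild type against 6.42, 6.44 and 6.37 in Hdac3 deleted samples, with no overlap. Rescaling the arrays moved every gene, and median centring put the median of all genes at -0.33, cyclic loess at 0.00. The Zfp median lay 0.18 below that of all genes on the deposited scale, 0.17 below with cyclic loess, 0.23 below with quantile normalization again and 0.26 below without the dimmest probe sets. Median centring and the CD3 scale move all genes of a sample alike and so leave this gap as it is. On the deposited scale 122 of the 173 (70.5%) lay below the median of all genes, and among those above background in both groups 88 of 113 did. Under the deposited scale, median centring, cyclic loess and repeated quantile normalization alike, 78 members were called lower and 13 higher each time. In that order, 38.8%, 58.3%, 23.5% and 39.9% of all genes were called lower.

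**Figure D1:**
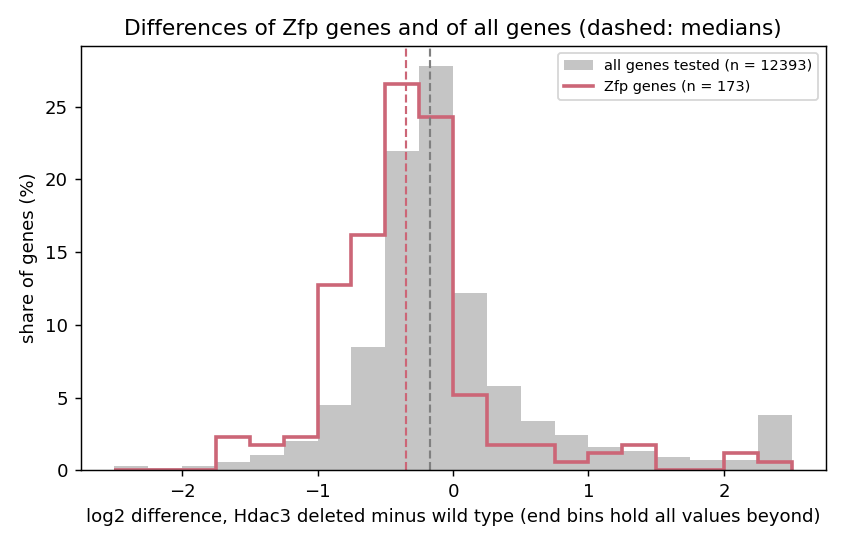
Share of genes (%) by log2 difference (Hdac3 deleted minus wild type) for the 173 Zfp genes (outline) and all 12393 genes tested (grey), with medians dashed at -0.35 and -0.17. The Zfp outline sits to the left of the grey bars on this scale, and relative to the CD3 genes both would move up by 1.47.

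With a 2-fold minimum added, 11 Zfp genes fell and 8 rose. Over all genes 4.46% fell and 9.04% rose by this rule. The share of Zfp genes past 2-fold was 6.36% in the lower and 4.62% in the higher direction. Above background in both groups, 8 of 113 fell and 4 rose past 2-fold, beside 5.86% and 9.15% of all such genes. Zfp758 and Zfp472, at -1.0 only after rounding, and Zfp931, at -0.99, lay just outside the threshold. Zfp937, at -1.04, lay just inside it. All but 1 of the 11 that fell have a single probe set, so most have no second measurement on the array. Relative to the CD3 genes none of the 11 was called lower by limma, and Zfp51, Zfp982, Zfp33b, Zfp54 and Zfp82 were the 5 whose difference there stayed below 0, from -0.14 to -0.03.

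Zfp51 measured 7.47, 7.71 and 7.61 in wild type against 5.69, 6.32 and 5.95 in Hdac3 deleted samples. All 3 Hdac3 deleted values lay below all wild type values, with a difference of -1.61 (SE 0.156, limma adjusted p = 0.000101), although the Hdac3 deleted samples differed among themselves by more than the wild type ones. Zfp33b measured 7.48, 7.73 and 7.73 against 6.15, 5.92 and 6.04, a difference of -1.61 (SE 0.095, adjusted p = 8.7e-06). Zfp82 measured 6.95, 7.06 and 7.03 against 5.44, 5.60 and 5.51, or -1.50 (SE 0.065, adjusted p = 1.83e-06). For both genes the gap between groups was many times the spread within them. Zfp982 reached background, at 6.33 ± 0.109 and 4.72 ± 0.068, and was at least 2.25-fold lower. Its probe set can match several transcripts, as can those of Zfp654, Zfp931, Zfp764, Zfp622 and Zfp644, among others. No probe sequence was used here to tell near-identical copies apart. Zfp654 and Zfp672 fell by 1.39 and 1.12, Zfp868 by 1.05, and Zfp937 was at least 1.52-fold lower. The Zfp654 values in Hdac3 deleted samples were 6.01, 6.52 and 5.98, so 1 sample stood nearer to wild type than the others.

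**Figure D2:**
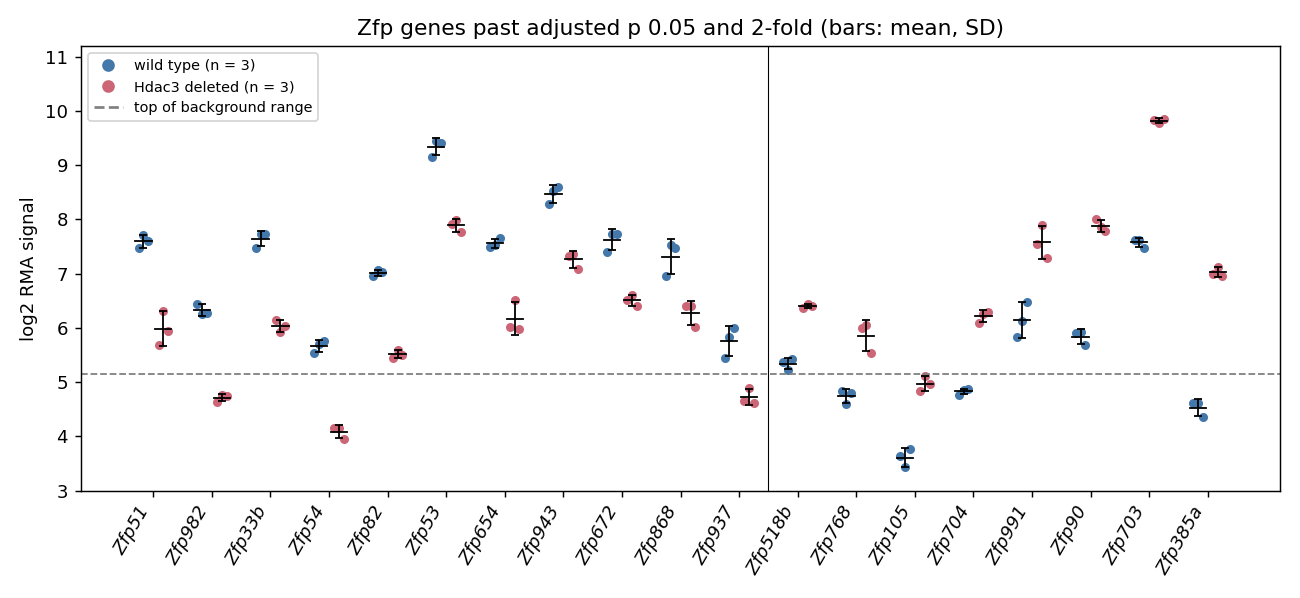
Log2 RMA signal of the 19 Zfp genes past adjusted p 0.05 and 2-fold, in each of 3 wild type (blue) and 3 Hdac3 deleted (red) samples, with mean and SD; the dashed line is the top of the background range, 5.16. The 11 genes that fell stand left of the line and the 8 that rose right of it, and in each the groups do not overlap; relative to the CD3 genes 7 of the 8 stay higher with a readable direction, Zfp105 being in background in both groups, and none of the 11 is called lower.

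Zfp51 lies beside Zfp54, Zfp53 and Zfp52 in the longest run of neighbours among the members, 13 Zfp genes on chromosome 17 with no other measured gene between them in the RefSeq gene order. The run held 4 of the 11 falls past 2-fold, in Zfp51, Zfp53, Zfp54 and Zfp943. Of the 13, 9 fell and 4 did not pass, and 3 of these 4 lay in background in both groups. Over all Zfp genes 61.8% were called lower, and over all genes 38.8%. Relative to the CD3 genes only Zfp51 and Zfp54 of the run lay below 0, at -0.14 and -0.11, and neither was called by limma. Zfp53 measured 9.16, 9.45 and 9.41 in wild type against 7.92, 7.99 and 7.76 in Hdac3 deleted samples, a difference of -1.45 (limma adjusted p = 1.74e-05). Zfp54 was lower in all 3 Hdac3 deleted samples, at 5.67 ± 0.117 and 4.09 ± 0.125, at least 1.43-fold. Zfp943 fell by 1.21, Zfp758 by 1.0, Zfp942 by 0.80, Zfp52 by 0.78, Zfp944 by 0.58 and Zfp213 by 0.32, and the Zfp213 call was lost with cyclic loess (-0.14, adjusted p = 0.186). A second Zfp52 probe set, in background in Hdac3 deleted samples, was at least 1.35-fold lower. Zfp160 differed by -0.21 (adjusted p = 0.103), and was called lower under 4 alternatives: quantile normalization again (-0.27), median centring (-0.37), array weights (-0.25) and without wild type replicate 1 (-0.28, adjusted p = 0.0396).

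The 250 bases before the first listed start are shown for 3 of these neighbours, each called lower, from RefSeq (GRCm38.p6). All are on the plus strand, Zfp54 at chr17:21422977-21423226, Zfp53 at chr17:21488738-21488987 and Zfp52 at chr17:21535289-21535538. Capitals mark bases in a run of 8 or more found in all 3.
Zfp54: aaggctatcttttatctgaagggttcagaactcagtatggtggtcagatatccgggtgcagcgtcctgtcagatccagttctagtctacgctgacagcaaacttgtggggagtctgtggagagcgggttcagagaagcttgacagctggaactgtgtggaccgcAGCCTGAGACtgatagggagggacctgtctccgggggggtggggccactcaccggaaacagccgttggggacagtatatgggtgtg
Zfp53: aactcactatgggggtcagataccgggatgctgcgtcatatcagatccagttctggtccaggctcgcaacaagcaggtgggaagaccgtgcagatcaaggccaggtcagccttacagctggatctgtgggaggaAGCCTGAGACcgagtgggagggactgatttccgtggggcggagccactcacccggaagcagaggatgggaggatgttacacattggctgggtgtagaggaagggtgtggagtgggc
Zfp52: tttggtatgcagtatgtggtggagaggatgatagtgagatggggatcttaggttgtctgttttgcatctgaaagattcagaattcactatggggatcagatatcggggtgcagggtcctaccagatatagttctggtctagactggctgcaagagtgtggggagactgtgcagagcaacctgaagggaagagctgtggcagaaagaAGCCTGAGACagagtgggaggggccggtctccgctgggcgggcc
The longest run shared by all 3 was 10 bases. The letters CCGGAA, the core read by ETS factors, begin 35 bases before the start of Zfp54 and 65 bases before that of Zfp53. The Zfp52 stretch does not hold them. On either strand, CCGGAA was in 28% of the 168 promoters listed for 139 Zfp genes, in 18.1% of those of all genes tested and in 12% of all promoters in the table. Among Zfp promoters it was in 30.6% where the gene was called lower, 27.3% where higher (3 of 11) and 21.7% where not called. AAGATGG, the core read by YY1, was in 3.57% of Zfp promoters and 4.24% of those of all genes tested, and TGACGTCA, the cyclic AMP response element, in 0.595% and 2.12%. None of the 3 motifs contains another. Zfp promoters held a median of 12 CG dinucleotides in 250 bases, beside 13 over all genes tested.

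Of the 173 members, 94 lay in 28 such runs of neighbours. In the runs 61 fell and 5 rose, and outside them 46 of 79 fell and 9 rose. These are 64.9% and 58.2% lower, beside 38.8% of all genes, and 5.32% and 11.4% higher, beside 22.4%. Above background in both groups, the median difference was -0.56 for 55 members in runs and -0.39 for 58 outside. Zfp472, Zfp955a, Zfp955b and Zfp101 stand in 1 run, chosen after its values were seen, and fell by 1.0, 0.92, 0.81 and 0.45. The other member of that run, Zfp81, lay in background in both groups (-0.12, limma adjusted p = 0.521). Zfp868, Zfp869 and Zfp930 form another, in which Zfp869 fell by 0.84 and Zfp930 was at least 1.23-fold lower, a call lost with cyclic loess (-0.49, adjusted p = 0.0752). In the run of 8 that holds Zfp82, 6 members fell, 2 of them in background, while Zfp568 rose, at 6.62, 6.64 and 6.79 in wild type against 7.24, 7.40 and 7.31 in Hdac3 deleted samples. Zfp568 is a KRAB repressor of a placental Igf2 promoter. Its difference was 0.63 (limma adjusted p = 0.000251), and a second probe set lay in background in both groups. Neighbours also moved apart in Zfp991, higher by 1.44 beside Zfp982, at least 2.25-fold lower, in Zfp768, at least 1.63-fold higher beside Zfp764 (-0.69), and in Zfp282, higher by 0.41 beside Zfp212 (-0.55). The Zfp282 call was lost over the mean of its probe sets (0.16, adjusted p = 0.112). Relative to the CD3 genes Zfp764, Zfp212 and Zfp101 were above 0.

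**Figure D3:**
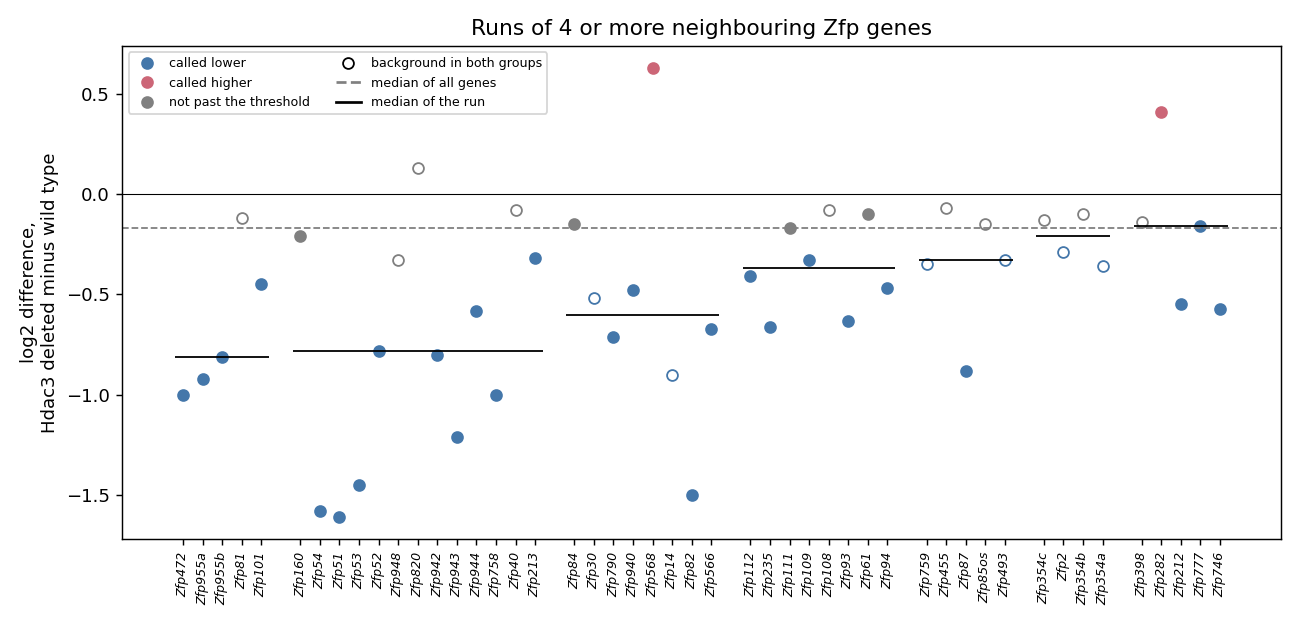
Log2 difference (Hdac3 deleted minus wild type) of each Zfp gene in runs of 4 or more neighbours, in chromosomal order within a run; open points lie in background in both groups, black lines are run medians and the dashed line is the median of all genes, -0.17. The run with Zfp51 to Zfp54 has a median of -0.78 and that with Zfp472 of -0.81; relative to the CD3 genes all points move up by 1.47.

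The genes that rose included the largest differences of either direction. Zfp385a, which encodes an RNA-binding zinc finger protein that also partners p53, measured 4.62, 4.62 and 4.35 in wild type against 7.0, 7.13 and 6.95 in Hdac3 deleted samples. It went from background to well above it, at least 3.65-fold higher (limma adjusted p = 8.77e-07). Zfp703, a corepressor of the NET family, measured 7.63, 7.63 and 7.48 against 9.83, 9.78 and 9.86, a rise of 2.24 (SE 0.064, adjusted p = 2.36e-07). Zfp90, a KRAB gene whose human counterpart has been described as a FOXP3 partner, measured 5.91, 5.93 and 5.68 against 8.0, 7.86 and 7.79, a rise of 2.04 (SE 0.093, adjusted p = 2.34e-06). In these 3 genes every Hdac3 deleted value stood above every wild type value, and each gene has a single probe set. The rises came in the samples with macrophage markers at 16.65 to 16.69, a link that was not tested.

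Smaller rises past 2-fold were in Zfp991 (1.44), Zfp518b (1.06), Zfp704, at least 2.08-fold, and Zfp768, at least 1.63-fold. Zfp991 varied most, at 5.83, 6.12 and 6.48 in wild type against 7.55, 7.90 and 7.29 in Hdac3 deleted samples, and a second probe set, in background in wild type, was at least 1.28-fold higher. The second Zfp704 probe set, likewise from background, was at least 1.11-fold higher. Zfp395, the relative of Zfp704 in the same small family, chosen after its values were seen, fell by 0.89 (adjusted p = 2.86e-05), from 6.77, 6.61 and 6.74 to 5.89, 5.77 and 5.78. A second Zfp518b probe set lay in background, and Zfp768 has a single probe set. Zfp105 also passed the threshold but lay in background in both groups, at 3.61 and 4.97, and gives no readable direction.

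The 3 CCCH genes differed in direction. Zfp36, or tristetraprolin, measured 10.86, 10.97 and 10.99 in wild type against 11.73, 11.72 and 11.73 in Hdac3 deleted samples, a rise of 0.79 (SE 0.057, limma adjusted p = 2.3e-05). Zfp36l1 measured 11.64, 11.71 and 11.70 against 11.24, 11.38 and 11.27, a fall of 0.39 (SE 0.059, adjusted p = 0.0011) that became 1.08 relative to the CD3 genes. Zfp36l2 measured 12.19, 12.29 and 12.38 against 12.17, 12.18 and 12.11, a difference of -0.13 (SE 0.067, adjusted p = 0.123). Median centring led to a call (-0.29), as did leaving out wild type replicate 1 (-0.18, adjusted p = 0.0498). Other probe sets gave -0.13 for Zfp36l1 (adjusted p = 0.129), and -0.56 and 0.04 for Zfp36l2, of which the first was called. Zfp36 has a single probe set. Of 16 measured genes of the CCR4-NOT deadenylase and related decay factors, 13 fell and 1 rose, beside 38.8% lower over all genes, with a median of -0.36. Btg2 and Tob1, which bridge to the deadenylase, fell by 1.29 and 1.27, and relative to the CD3 genes they were 0.18 and 0.20 higher. Of 15 AU-rich transcripts known as targets of this group, 10 were higher and 2 lower, with a median of 0.80, beside 22.4% and 38.8% called over all genes. Il6 and Il2, 1 in each direction, lay in background in both groups. Il10 rose from 7.23 ± 0.17 to 8.52 ± 0.06 (SD, n = 3) and Csf2 was at least 2.58-fold higher, while Tnf stood at 8.52 ± 0.024 and 8.39 ± 0.027 (limma adjusted p = 0.0654). The rise of macrophage markers and the CD3 fall given above accompany both lists.

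Other members bind RNA or act in splicing, translation or mitosis. Of 11 measured on this list 7 fell, 2 rose and 2 did not pass, beside 38.8% lower and 22.4% higher over all genes, and each of the 7 lay above 0 relative to the CD3 genes. Zfp638, which brings the HUSH silencing complex to retroviral DNA, measured 9.82, 9.75 and 9.79 in wild type against 8.87, 9.02 and 8.78 in Hdac3 deleted samples, a fall of 0.89 (limma adjusted p = 3.97e-05). Its second probe set fell by 1.04. Zfp277 fell by 0.71 and Zfp346, a protein of double-stranded RNA, by 0.56. Zfp207, a spindle factor that binds Bub3, fell by 0.41 in the probe set used, while its other 4 probe sets differed by -0.16 to 0.10 and were not called. Zfp106 rose by 0.73, from 8.66, 8.69 and 8.93 to 9.45, 9.59 and 9.43. Of its other 4 probe sets 1 was called, in background, so this rise rests on 1 probe set.

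Changes in the remaining RNA-linked members were small. Zfp622, a factor of large ribosomal subunit assembly, differed by -0.20, Zfp830 by -0.23 and the ubiquitin ligase gene Zfp91 by -0.18. A second Zfp622 probe set gave -0.48. The Zfp622 call was lost without Hdac3 deleted replicate 1 (adjusted p = 0.052), and the sign turned with cyclic loess (0.02). The Zfp830 call was lost without Hdac3 deleted replicate 3 (adjusted p = 0.0516) and with cyclic loess. A second Zfp91 probe set stood at 8.73 and 8.89, a difference of 0.16 (adjusted p = 0.115). The Zfp91 call was lost when any sample but wild type replicate 2 was left out (adjusted p = 0.0533 to 0.0746), and with cyclic loess its difference was 0.01. Zfp598, which marks collided ribosomes, and Zfp326, a splicing factor, differed by -0.12 and -0.26 (adjusted p = 0.127 and 0.0636). Zfp326 was called lower without Hdac3 deleted replicate 2 (-0.34, adjusted p = 0.0308), and under 5 other alternatives (adjusted p = 0.007 to 0.0451).

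**Figure D4:**
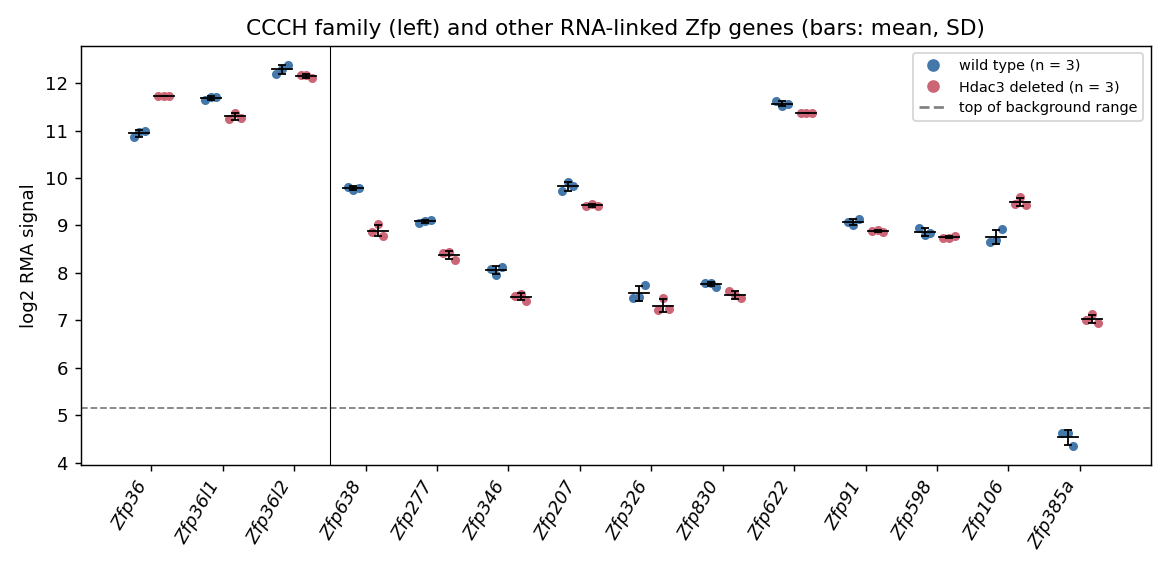
Log2 RMA signal of the 3 CCCH genes (left of the line) and 11 other RNA-linked Zfp genes in each of 3 wild type (blue) and 3 Hdac3 deleted (red) samples, with mean and SD; the dashed line is the top of the background range, 5.16. Zfp36, Zfp106 and Zfp385a stand higher in the red samples, and Zfp36l1, Zfp638 and Zfp277 lower, which turns relative to the CD3 genes.

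Of 14 measured transcription and chromatin cofactors 4 fell (28.6%), 2 rose (14.3%) and 8 did not pass, shares below the 38.8% and 22.4% of all genes. Of the 14, 6 lay in background in both groups. The related GC-box factors Zfp148 and Zfp281 fell by 0.53 and 0.44 (limma adjusted p = 0.000187 and 0.000594). The second Zfp281 probe set gave -0.43, and the other 3 of Zfp148 gave -0.66, -0.33 and -0.32, the second of which was not called. Zfp746, a repressor of the Ppargc1a gene, fell by 0.57, and Zfp292 fell by 0.29, a call lost with cyclic loess (-0.11, adjusted p = 0.235). Zfp148, Zfp281, Zfp746 and Zfp292 were above 0 relative to the CD3 genes. Besides Zfp703, Zfp219 rose, by 0.27, a call lost with median centring (0.11, adjusted p = 0.0934). Zfp318, which controls the splicing of IgD in B cells, differed by -0.13 (adjusted p = 0.145), and Zfp467 by -0.09 (adjusted p = 0.314), while its second probe set was called higher by 0.18.

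Of 5 measured KRAB genes of known target, 3 were called lower, beside 38.8% of all genes, of which Zfp354a and the imprinting factor Zfp57 lay in background. Zfp932 fell by 0.60, from 8.47, 8.57 and 8.65 to 8.04, 8.02 and 7.83 (limma adjusted p = 0.000611), and was higher by 0.87 relative to the CD3 genes. Zfp445, which also guards imprinted loci, differed by -0.14 (adjusted p = 0.159), while its second probe set was lower by 0.33. Of 21 measured genes of the KRAB corepressor machinery 7 fell, 6 rose and 8 did not pass, counts near the 38.8% and 22.4% of all genes, with a median of 0.05. Trim28, the corepressor that KRAB domains bind, measured 10.30, 10.33 and 10.33 in wild type against 10.30, 10.37 and 10.25 in Hdac3 deleted samples. Its groups overlapped (adjusted p = 0.833), though it was called lower with median centring (-0.17) and higher with cyclic loess (0.19).

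Probe sets of the same gene gave a check on these directions. Of the Zfp genes 58 had more than 1 probe set, with 81 beside the ones used, and over all probe sets 37.4% were called lower and 20.1% higher. Where the probe set used was called lower, 35 others were above background and 24 of them were called lower. No gene had probe sets called in opposite directions by limma, also none with both at an unadjusted p under 0.05. Where the probe set used did not pass, 9 others were called lower and 2 higher. Both counts take in probe sets that lay in background in both groups. Zfp84, at -0.15 in the probe set used and -0.89 in the other, was among the 9. The first was called without Hdac3 deleted replicate 2 (-0.23, limma adjusted p = 0.0381), and with median centring (-0.31).

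Other zinc finger families on the array are given for comparison and were not tested against the Zfp genes, and the CD3 scale adds 1.47 to each median. Over all genes the median was -0.17, with 38.8% called lower and 22.4% higher. The 23 Zbtb genes had a median difference of -0.41, with 12 called lower and 2 higher. The 11 Zscan and Zkscan genes had -0.26, with 5 called lower and 1 higher, and the 14 Klf genes had -0.01, with 4 called lower and 5 higher.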

How the data were processed

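The authors deposited 1 log2 value for each probe set and array. Per the labels, they obtained these by robust multiarray averaging (RMA) in MAYDAY 2.12 and compared groups by Student's test with a 2-fold minimum. RMA gives the arrays a common distribution, so a change in total RNA per cell cannot be seen.

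After 64 control probe sets were left out, 22626 remained, of which 20380 had 1 gene symbol. All 173 Zfp genes matched RefSeq (GRCm38.p6) by Entrez identifier. The groups were compared by limma 3.58.1 (lmFit, eBayes; two-sided, no covariate) in R 4.3.3. Tables and plots used Python 3.11.15, pandas 2.3.3 and matplotlib 3.10.9. In simulated data over 12393 genes, with each gene's own spread, a log2 change of 0.5 was recovered in 64% of genes. Changes of 1 were recovered in 96% and of 2 or 4 in 100%, and of 12193 genes left alone 9 were called. There nearly all genes were unchanged and the noise was independent, while here 38.8% of genes were called lower and 22.4% higher. The simulated rates therefore do not carry over to the real comparison. The number of arrays limits the precision.

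Members and lists were chosen with earlier results of these data known. Genes named are Hdac3, up to 10 rises and 10 falls past 2-fold, members of 4 role lists above background and their neighbours; others are said to be chosen after their values were seen or stand for a count. KRAB genes could not be counted, since no protein sequences were used here. The alternatives are given in the closing section. Deviations of same-numbered samples correlated at 0.09, 0.06 and -0.20, and those of differently numbered samples at -0.25 to 0.22. With 3 samples per group these values cannot decide whether the replicate numbers pair the samples. The main fit used no pairing.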

Additional observations from a re-analysis of the deposited data

How the results depend on the processing

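Past 2-fold 11 Zfp genes were lower and 8 higher. Quantile normalization again gave 17 lower and 7 higher, and median centring gave 23 lower and 6 higher. Cyclic loess gave 8 lower and 9 higher, and leaving out the dimmest probe sets gave 10 lower and 7 higher. With a 1.5-fold minimum 48 were lower. Over all genes 4.46% were lower and 9.04% higher past 2-fold on the deposited scale. Shares of all genes past a fold minimum were not counted under the alternatives. The median difference of -0.35 became -0.42 once the dimmest probe sets were left out, -0.51 with median centring and -0.17 with cyclic loess. Relative to the 4 CD3 genes the median was 1.12, and limma called 166 higher and 0 lower, 106 and 0 of them past 2-fold. Also 0 were lower at an unadjusted p under 0.05. On that scale 99% of the calls over all genes were higher, and 0.944% of all genes were called lower. With samples left out in turn, 9 to 15 fell and 8 to 8 rose past 2-fold, 93 to 102 fell and 14 to 14 rose at any size, and the median was -0.38 to -0.34. In those fits 34.4% to 36.9% of all genes were called lower at any size. With the replicate number as a block 98 fell and 14 rose, beside 37.6% of all genes called lower. Under that block Zfp644 (limma adjusted p = 0.0502), Zfp777 (0.0782) and Zfp91 (0.0654) lost their call while Zfp948 gained it (0.0205). The cause of these changes was not tested.

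Named genes that turned relative to the CD3 genes were Zfp654 (0.08), Zfp53 (0.02), Zfp943 (0.25), Zfp672 (0.35), Zfp868 (0.42), Zfp758 (0.47), Zfp14 (0.57), Zfp638 (0.57), Zfp869 (0.63), Zfp942 (0.67), Zfp52 (0.68), Zfp277 (0.75), Zfp790 (0.75), Zfp764 (0.77), Zfp566 (0.80), Zfp930 (0.80), Zfp932 (0.87), Zfp944 (0.89), Zfp346 (0.90), Zfp746 (0.90), Zfp212 (0.92), Zfp148 (0.94), Zfp30 (0.95), Zfp940 (0.99), Zfp281 (1.03), Zfp207 (1.06), Zfp36l1 (1.08), Zfp644 (1.12), Zfp948 (1.14), Zfp213 (1.15), Zfp292 (1.17), Zfp326 (1.2), Zfp830 (1.24), Zfp160 (1.26), Zfp622 (1.27), Zfp91 (1.28), Zfp777 (1.31), Zfp84 (1.32), Zfp36l2 (1.33), Zfp398 (1.33), Zfp445 (1.33), Zfp318 (1.34), Zfp598 (1.35), Zfp467 (1.38), Zfp40 (1.39), Zfp937 (0.43), Zfp472 (0.47), Zfp931 (0.48), Zfp955a (0.54), Zfp395 (0.57), Zfp955b (0.66), Zfp101 (1.01), Zfp354a (1.11), Zfp57 (1.13) and Hdac3 (0.91). With cyclic loess Zfp622 (0.02), Zfp777 (0.02) and Zfp91 (0.01) turned. Of the named genes, which are 64 members and Hdac3, 41 kept their direction and side of the threshold under every alternative run other than the CD3 scale.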

Other observations

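Of 16 probe sets that name a Zfp gene together with another gene and so entered no comparison, 9 were called lower and 1 higher by limma over all probe sets, where 37.4% were called lower. Of 11 above background, 8 were called lower. The 3 of Zfp706 and Gm10193 called lower gave -0.66, -0.60 and -0.58, and that of Zfp526 and 9130221H12Rik gave -0.90. The 1 called higher, also of Zfp706 and Gm10193, lay in background.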
